A study of Mus musculus with 8 samples.

Results

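A total of 222 of the 12830 genes measured were already raised after 2 days of PU.1 restoration in mouse acute myeloid leukaemia cells. A gene was a member when both day 2 libraries reached at least 1.4 times the higher untreated library, when its highest group mean reached 5 CPM (the depth-normalised read count, scaled by the TMM method), and when day 2 replicate 1 was not over 3 times replicate 2. The last limit removed 0 genes. Members were thus chosen by their day 2 and untreated values, which are given as a description, with no test. RNA was sequenced from AML410 cells, a p53-/- leukaemia with a monosomal karyotype, taken from the bone marrow of C57BL/6 recipient mice. The cells hold a PU.1 hairpin (shPU.1) expressed together with green fluorescent protein (GFP). Doxycycline (Dox) shuts the hairpin off, so endogenous PU.1 returns. Untreated cells were sorted as GFPhigh, cells after 2 days of Dox as GFPhigh-mid, after 4 days as GFPmid and after 6 days as GFPlow, with 2 libraries in each of the 4 groups. All groups lack p53 and carry the hairpin, all come from 1 leukaemia, and days of Dox and sorting gate moved together, so their effects cannot be told apart.

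PU.1, encoded by Spi1, is an ETS family transcription factor that binds DNA around a GGAA core. Its level guides blood progenitors: low amounts hold them immature and high amounts drive monocyte, macrophage and granulocyte genes, among them receptors for growth factors, Fc regions, microbial products and lectin ligands. Leukaemias with lowered PU.1 stay at an immature myeloid stage.

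The libraries held 9262047 to 11213292 counts. Spi1 itself measured 8.32 and 12.9 CPM untreated, 14.8 and 15.6 at day 2, 94.1 and 103 at day 4 and 217 and 229 at day 6, and it was not a member because its lower day 2 library was 1.15 times the higher untreated library. Myeloid identity genes were read in all libraries, but some moved strongly. Elane, the neutrophil elastase gene, lay between 2752 and 10524 CPM, and Mpo between 129 and 269 CPM. Kit fell from 132 and 125 CPM untreated to 34.9 and 38.3 at day 6. Ptprc rose from 27.9 and 26.5 CPM untreated to 681 and 683 at day 6, and Cd33 from 2.46 and 1.92 to 78.3 and 94.4. Day 2 replicate 1 stood apart, since its most abundant gene took 13.3% of its counts, against 0.957% to 1.73% elsewhere, and its B cell markers summed to 914 CPM, against 445 CPM in replicate 2. Titles call the replicates technical and the design text speaks of duplicate mice, so the p-values reflect only how far these libraries differ, and that spread may be technical. In bulk RNA, a change in the number of cells of a type and a change in RNA per cell cannot be told apart.

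At day 2 the rise of the members was modest. The lower day 2 library exceeded the higher untreated library by a median factor of 1.55, and 30 members reached a factor of 2. The median log2 fold change of day 2 over untreated was 0.84, against 0.01 over all genes. Members started low: their median level was 13.4 CPM untreated, 26.7 at day 2, 49.1 at day 4 and 61.8 at day 6, while the median of all genes was 27.3 CPM untreated and 27.7 at day 6. The share of each library's CPM in members was 1.12% and 1.07% untreated, 1.504% and 1.85% at day 2, 3.27% and 3.31% at day 4 and 3.46% and 3.42% at day 6. Of the members, 215 code for proteins, 3 are long noncoding RNAs and 4 are transcribed pseudogenes. Just inside the limit were Apbb1ip with a ratio of 1.402, Ly6a with 1.406 and Rlim with 1.406, and just outside were Ptp4a2 with 1.398, Tmem106b with 1.398 and Tbc1d7 with 1.396. Counts were thin for some members, since 11 had under 20 counts over both day 2 libraries and 5 of these had under 10. Without those 11, the counts of calls given next kept their sizes within a factor of 1.5.

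The comparison of day 6 with day 4 used none of the libraries that set the 1.4-fold limit. There, 97 members were higher at day 6 (43.7%, against 15.9% of the 12330 genes tested), 25 were lower (11.3%, against 14.0%) and 100 were not called, by the edgeR quasi-likelihood test with Benjamini-Hochberg adjustment at a threshold of 0.05. The members' median log2 fold change was 0.23, with quartiles of -0.12 and 0.68, against -0.02 over all genes tested. The share of higher calls lay above the background and the share of lower calls near it. The level limit did read days 4 and 6, and 40 members reached 5 CPM only there. Among the other 182 members, 68 were higher (37.4%) and 24 lower (13.2%), against 16.1% higher and 16.1% lower of the 10163 genes tested at the same early level. Scaling by total counts moved the median of all genes to -0.20 and the members' median to 0.05, and then 61 members were higher and 40 lower. That scaling ended the higher calls of Apbb1ip, Coro1a, Dstn, Fes, P2ry6, Sla, Tagap, Tlr9 and Tmed5, among others. Without day 4 replicate 1, 64 were higher and 12 lower, and without day 6 replicate 2, 65 were higher and 9 lower. The calls of 58 higher and 9 lower members held in each fit with 1 library left out.

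**Figure D1:**
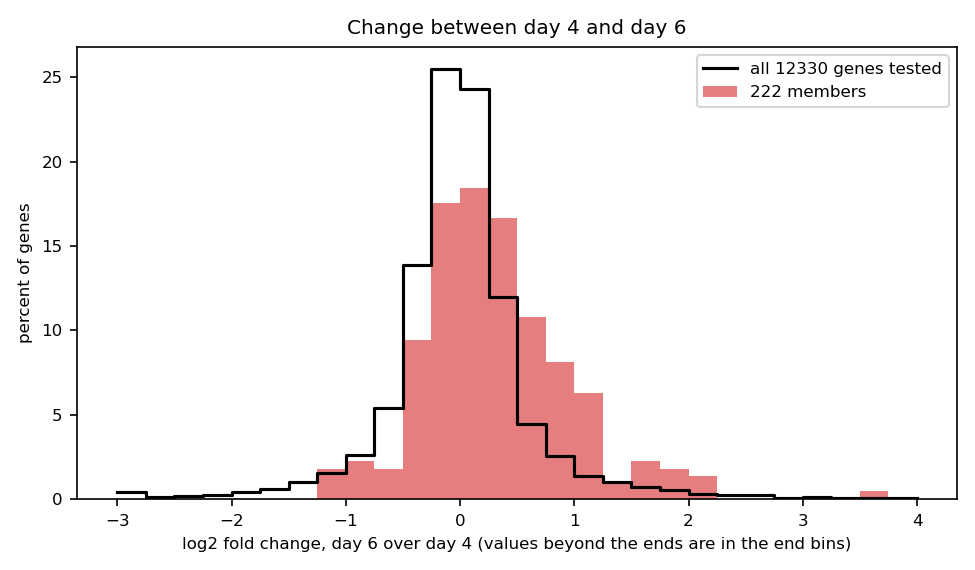
Distribution of the log2 fold change of day 6 over day 4 (x axis), as a percent of genes in each bin (y axis), for the 222 members (red bars) and all 12330 genes tested (black line). The members' bars lean to the right, with a median of 0.23 against -0.02.

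The step to day 4 was larger. At day 4, 158 members were higher than at day 2 (71.2%, against 21.7% of all genes tested) and 15 lower (6.76%, against 15.9%), with a median log2 fold change of 0.93. This comparison shares the day 2 libraries with the rule, and a rule that asks for high day 2 libraries favours lower values at day 4, so single members' changes from day 2 to day 4 are given below as values with no p. Relative to untreated cells, 208 members were higher at day 4 (background 26.4%) and 208 at day 6 (background 32.2%). The lower members were 1 at day 4 (background 21.6%) and 8 at day 6 (background 31.2%). The rule also read the untreated libraries. Asking for low untreated libraries favours higher calls against them, so these counts are a description. The fitted median log2 fold change over untreated was 1.74 at day 4 and 2.11 at day 6, where 178 members exceeded a factor of 2 and 65 a factor of 8. Among the 208 members higher at day 6 than untreated, day 2 had reached a median of 21.5% of the rise in CPM seen by day 6. That portion was under 10% for 54 members, over 50% for 46 and over 100% for 17. It is a description, since it uses the values that chose the members and is taken over members called higher at day 6. Of all 222 members, 22 had their highest group mean at day 2, 55 at day 4 and 145 at day 6.

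By both steps together, 77 members rose at day 4 and again at day 6 (34.7%, against 9.51% of all genes tested), and 67 rose at day 4 with no call at day 6 (30.2%, against 11.4%). A further 14 rose at day 4 and fell at day 6 (6.31%, against 0.852%), and 18 had no call at day 4 and rose at day 6 (8.11%, against 5.53%). Neither step was called for 26 members (11.7%, against 50.2%). Lower at day 4 than at day 2 were 15 members: 6 fell again at day 6, 7 had no call there, and St14, which encodes the membrane protease matriptase, and Il18rap were higher at day 6 than at day 4.

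**Figure D2:**
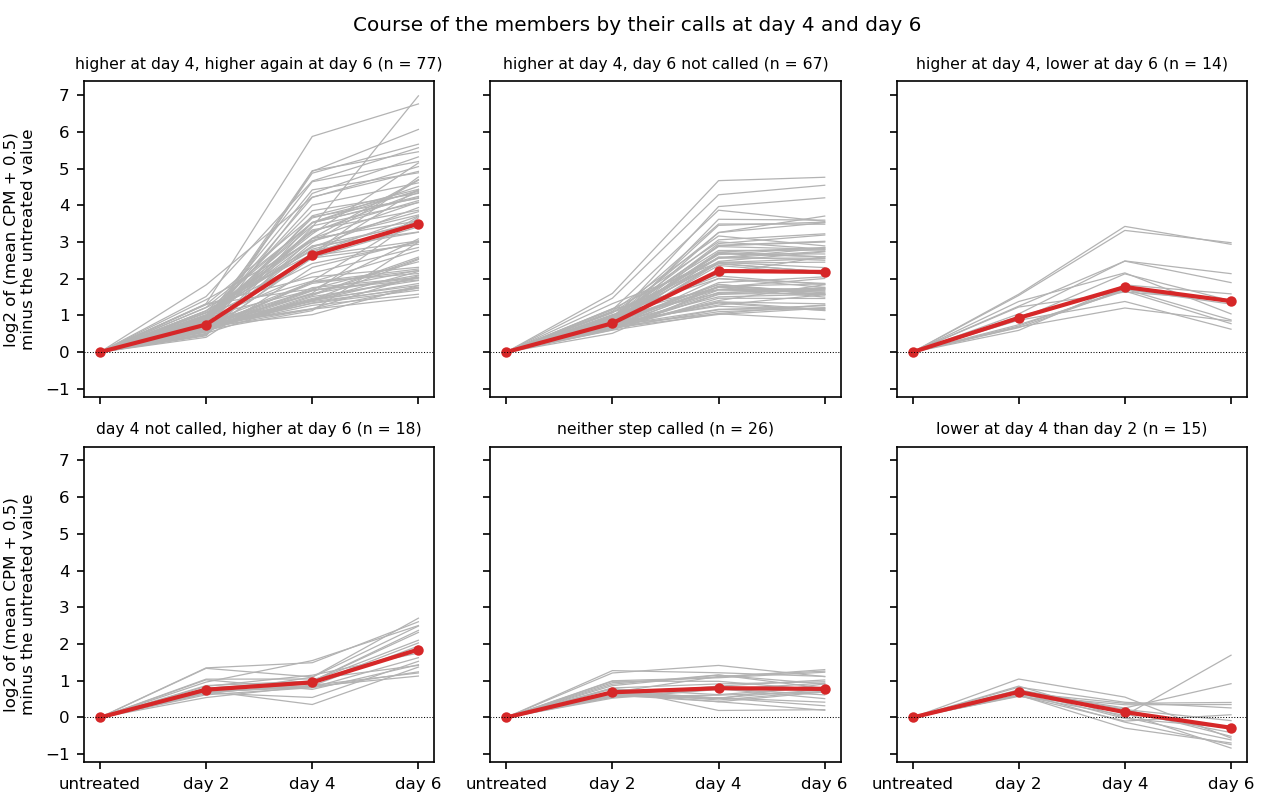
Course of each member (grey lines) and of the median (red line with points), as log2 of the group mean CPM plus 0.5 minus the untreated value (y axis), over untreated, day 2, day 4 and day 6 (x axis), in 6 panels by the calls of day 4 against day 2 and day 6 against day 4. The 77 members called higher at both steps climb furthest. The 15 called lower at day 4 move toward or below the untreated level there, and of these St14 and Il18rap are higher again at day 6.

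**Figure D3:**
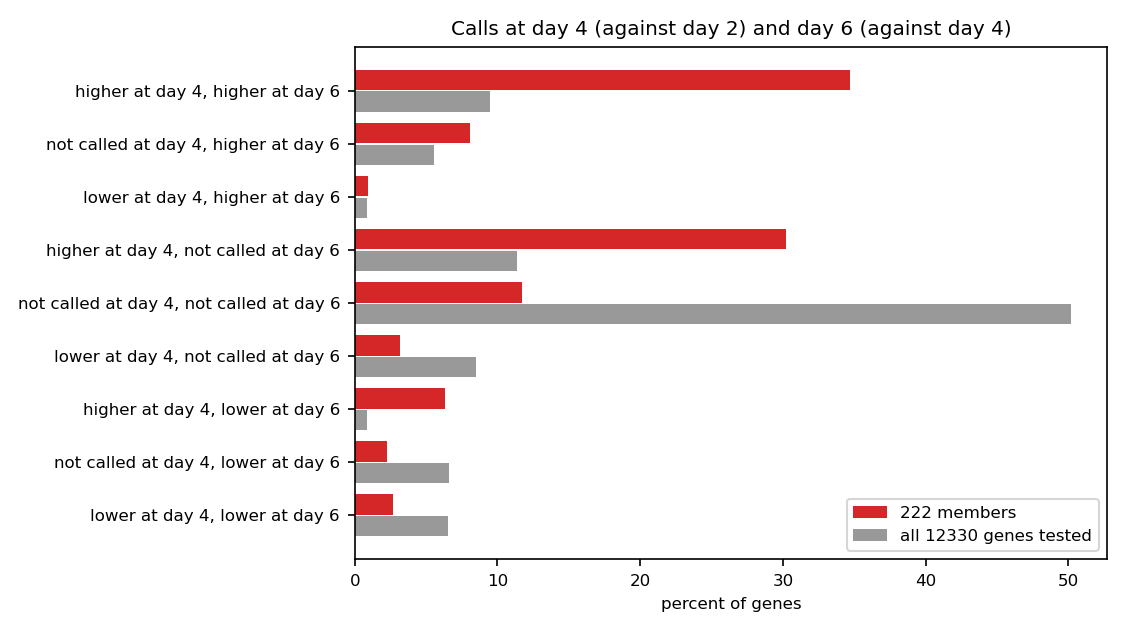
Percent of genes (x axis) in each pair of calls of day 4 against day 2 and day 6 against day 4 (y axis), for the 222 members (red) and all 12330 genes tested (grey). Members called higher at both steps make up 34.7%, against 9.51% of all genes tested, and members called at neither step 11.7%, against 50.2%.

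Promoters of members from several groups described next are shown with the core motif that PU.1 binds. Of the 222 members, 171 (77.0%) matched a promoter in the RefSeq table for GRCm38.p6, from 250 bases before to 50 after the start. As fewer than 80% matched, a comparison over the whole set is void, and the motif counts only describe the matched genes. The core AGGAAGT, searched on both strands, lay in 29 of the 171 member promoters (17.0%), against 9.43% of the promoters of other measured genes and 9.57% of all 27025 promoters. Each 60-base stretch lies before the start, reads 5′ to 3′ along the gene's strand, and has the core or its reverse complement in capitals. The stretches are chr5:64933559-64933618 on the minus strand for Tlr1, chr6:129045841-129045900 on the plus strand for Klrb1f, chr17:7925833-7925892 on the plus strand for Tagap, chr7:3720468-3720527 on the minus strand for Pirb, chr10:117292935-117292994 on the minus strand for Lyz1 and chr5:104434973-104435032 on the plus strand for Spp1.
Tlr1: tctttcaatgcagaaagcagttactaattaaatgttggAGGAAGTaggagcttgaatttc
Klrb1f: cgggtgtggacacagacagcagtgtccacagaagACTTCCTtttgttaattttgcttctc
Tagap: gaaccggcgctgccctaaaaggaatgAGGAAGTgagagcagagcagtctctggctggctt
Pirb: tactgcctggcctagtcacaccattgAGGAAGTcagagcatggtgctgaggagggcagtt
Lyz1: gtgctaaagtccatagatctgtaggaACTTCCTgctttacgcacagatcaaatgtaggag
Spp1: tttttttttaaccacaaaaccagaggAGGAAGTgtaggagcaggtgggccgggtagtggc
The first base of the core stood 22 bases before the start in Tlr1, 26 in Klrb1f, 141 in Tagap, 119 in Pirb, 100 in Lyz1 and 112 in Spp1. The genes shown were picked with their values known, and Spp1, which fell below its untreated level by day 6, is shown because it carries the same core. The other motifs, also searched on both strands, are given for members, other measured genes and all promoters in that order. GCGGGAA (E2F) lay in 5.85%, 8.71% and 4.66%, and TGTGGTT (RUNX) in 5.85%, 3.92% and 5.37%. TGANTCA (AP-1) lay in 4.68%, 5.08% and 7.93%, and TTGCNNAA (C/EBP) in 12.9%, 8.40% and 10.8%. A match is a string of letters, not a measured site, and binding was not measured here.

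The highest medians at day 6 belonged to groups of surface receptors and the MHC class II pathway. The members were sorted into 17 groups by role after they were known, so each group is a description, to be read beside the shares over all genes tested: 21.7% higher and 15.9% lower at day 4 than at day 2, and 15.9% higher and 14.0% lower at day 6 than at day 4. No group was tested as a whole, and some genes named below were picked with their values known. The 6 C-type lectin receptors, which bind sugars or self ligands, were all higher at day 4 than at day 2, and 5 of the 6 were higher again at day 6. Their fitted median log2 fold change over untreated was 1.59 at day 2, 5.14 at day 4 and 5.95 at day 6, or 1.46, 4.67 and 5.26 with Clec4n at a floor of 3 counts over the untreated group. Clec12a, an inhibitory receptor of myeloid cells, measured 26.8 and 20.1 CPM untreated, 80.5 and 88.9 at day 2, 425 and 467 at day 4 and 703 and 747 at day 6. Its groups did not overlap at any step, and day 6 exceeded day 4 by a log2 fold change of 0.70 ± 0.10, adjusted p = 0.000576 by edgeR. Clec5a, which signals through the adaptor Tyrobp, measured 13.2 and 13.4 CPM untreated, 32.2 and 40.9 at day 2, 105 and 118 at day 4 and 181 and 208 at day 6. Day 6 exceeded day 4 by 0.81 ± 0.11, adjusted p = 0.000287 by edgeR. Clec4a2, an inhibitory receptor of the Clec4 cluster, measured 2.80 and 3.93 CPM untreated, 8.31 and 9.97 at day 2, 214 and 238 at day 4 and 411 and 425 at day 6. Its level stayed low through day 2, and reads may be shared among these close paralogs. Most of its rise fell between day 2 and day 4 (log2 fold change 4.61 ± 0.12). Klrb1f, an NKR-P1 family lectin whose promoter is printed above, measured 18.1 and 16.5 CPM untreated, 31.9 and 37.7 at day 2, 202 and 183 at day 4 and 291 and 307 at day 6. All libraries of a later group lay above those of the earlier ones.

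Clec4n, which encodes the fungal receptor dectin-2, had 0 counts in the untreated libraries and 7 over both day 2 libraries. It then measured 5.54 and 3.02 CPM at day 4 and 6.42 and 5.62 CPM at day 6, at least 47.7-fold higher at day 6 than a floor of 3 counts over the untreated group. Clec4a4, a close relative of Clec4a2, had 2 counts over both untreated libraries and 6 over both day 2 libraries, then 6.36 and 6.15 CPM at day 4 and 12.4 and 11.4 CPM at day 6. These genes met the ratio with few reads, so their early rise is a difference of a few counts. Clec4a4 was higher at day 6 than at day 4 (log2 fold change 0.92 ± 0.20, adjusted p = 0.00553 by edgeR), with an adjusted p of 0.063 without day 6 replicate 1. Ms4a4a, a membrane-spanning MS4A protein, likewise had 0 untreated counts and 4 over both day 2 libraries, then 2.91 and 2.34 CPM at day 4 and 11.4 and 9.19 CPM at day 6, at least 81.4-fold above the same floor.

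The 8 paired and inhibitory receptors and their adaptor were all higher at day 4 than at day 2, and 6 of them were higher again at day 6, 1 was lower and 1 was not called. Their median log2 fold change over untreated was 0.96 at day 2 and 3.89 at day 6. Tyrobp, the DAP12 adaptor that carries the signal of activating receptors, measured 184 and 158 CPM untreated, 317 and 356 at day 2, 981 and 1057 at day 4 and 1224 and 1217 at day 6. Each group lay above the earlier groups, and the last step, 0.26 ± 0.09 on the log2 scale, did not pass (adjusted p = 0.0584 by edgeR). Cd300a, an inhibitory receptor for membrane lipids, measured 13.2 and 12.5 CPM untreated, 27.0 and 29.8 at day 2, 142 and 163.3 at day 4 and 247 and 244 at day 6. It rose at the last step by 0.68 ± 0.08, adjusted p = 0.000167 by edgeR. Pirb, an inhibitory receptor for MHC class I whose promoter is printed above, measured 1.95 and 1.84 CPM untreated, 2.77 and 3.95 at day 2, 65.7 and 73.8 at day 4 and 117 and 124 at day 6. Its untreated and day 2 libraries lay close together, and the groups separated widely from day 4 on. The activating receptor Pilrb1 measured 2.38 and 1.92 CPM untreated, 3.35 and 3.68 at day 2, 20.2 and 20.8 at day 4 and 62.5 and 72.4 at day 6. Its inhibitory counterpart Pilra measured 24.9 and 20.1 CPM untreated, 48.4 and 39.7 at day 2, 175 and 165.3 at day 4 and 243 and 274 at day 6. The Pilra and Pilrb1 genes are similar neighbours, so reads may be split between them. Lair1, an inhibitory collagen receptor, was the member of the group that fell at day 6 (log2 fold change -0.32 ± 0.08, adjusted p = 0.0114 by edgeR), a call lost without day 4 replicate 1 (edgeR adjusted p = 0.0547), day 4 replicate 2 (0.0527) or day 6 replicate 2 (0.131). Siglecf, a sialic acid receptor that also marks eosinophils, measured 2.12 and 1.84 CPM untreated, 3.58 and 4.04 at day 2, 6.18 and 6.05 at day 4 and 10.4 and 11.4 at day 6.

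**Figure D4:**
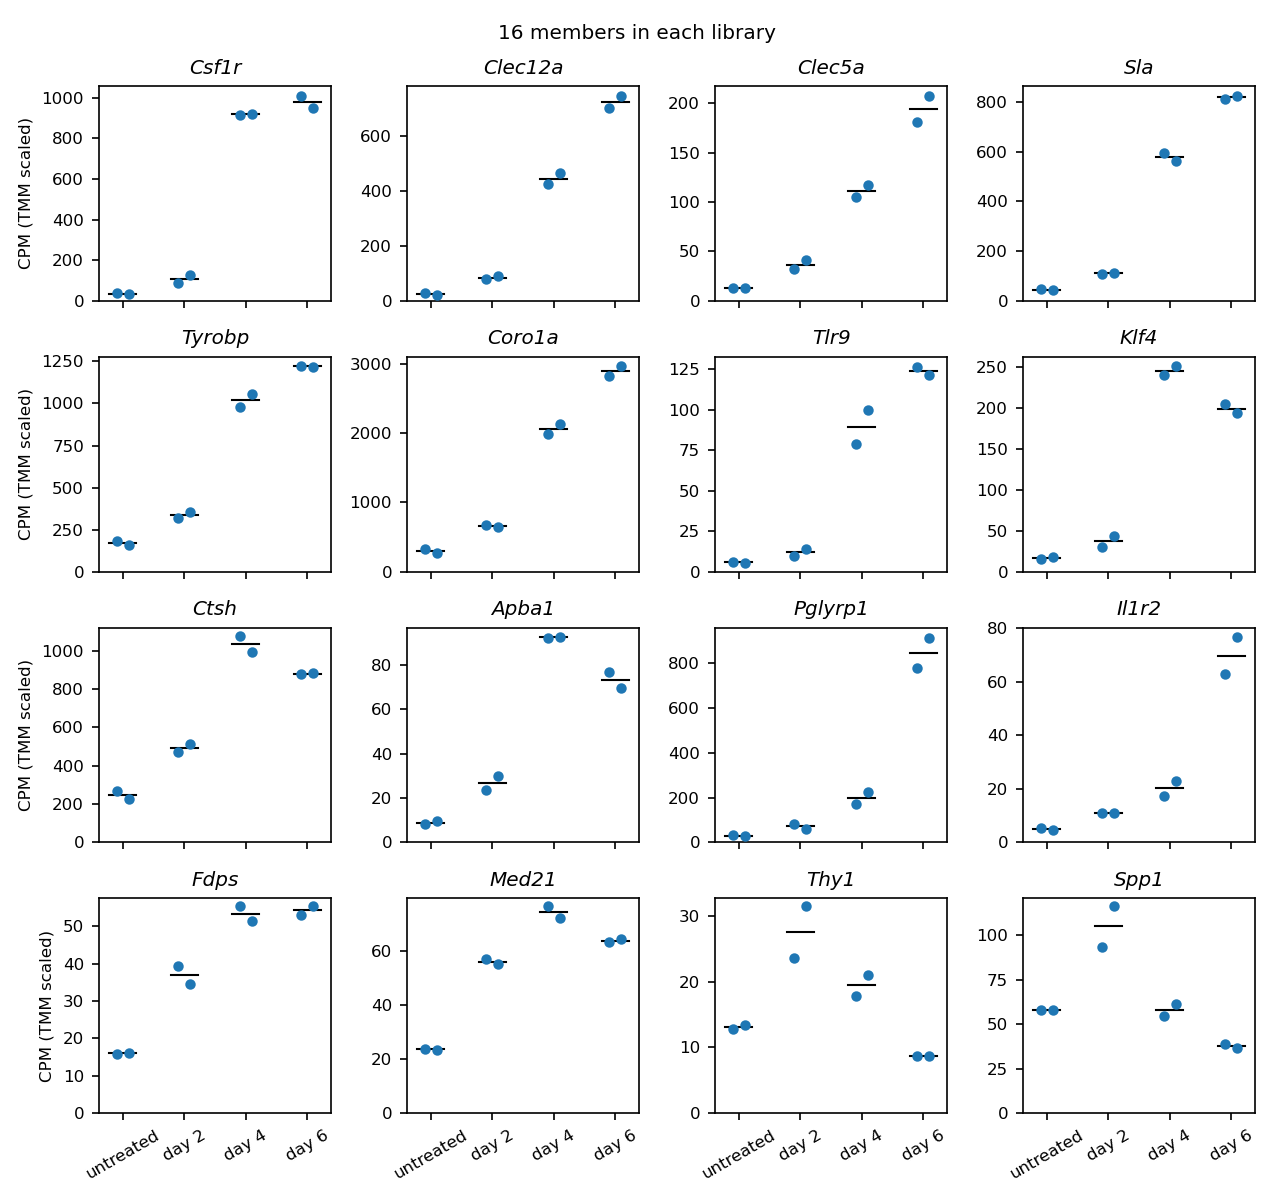
CPM (y axis, linear and from 0) of 16 members in each library (points) with the mean of each group (line), by group (x axis). Csf1r, Clec12a, Sla and Coro1a climb steeply between day 2 and day 4, Pglyrp1 and Il1r2 mainly between day 4 and day 6, and Thy1 and Spp1 are highest at day 2.

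Receptors for soluble signals followed. Csf1r, which binds the growth factor M-CSF and is a classical PU.1 target, measured 39.6 and 31.7 CPM untreated, 89.5 and 128 at day 2, 917 and 920.1 at day 4 and 1009 and 949.9 at day 6. The groups did not overlap between untreated, day 2 and day 4, day 4 exceeded day 2 by a log2 fold change of 3.07 ± 0.15, and day 6 differed from day 4 by 0.09 ± 0.14 with no call (edgeR adjusted p = 0.655). Il13ra1, a chain of the interleukin 13 receptor, measured 10.7 and 11.2 CPM untreated, 23.7 and 28.6 at day 2, 128 and 133 at day 4 and 219 and 213 at day 6. It rose at both steps. Il1r2, the decoy receptor for interleukin 1, measured 5.27 and 4.60 CPM untreated, 11.1 and 10.9 at day 2, 17.4 and 23.1 at day 4 and 63.0 and 76.7 at day 6. Its largest step was the last (log2 fold change 1.79 ± 0.14, adjusted p = 1.68e-05 by edgeR). Il18rap, the accessory chain of the interleukin 18 receptor, measured 17.2 and 17.8 CPM untreated, 26.8 and 26.6 at day 2, 16.1 and 20.4 at day 4 and 57.9 and 57.8 at day 6. It stood below day 2 at day 4 (log2 fold change -0.55 ± 0.12) and above all earlier libraries at day 6. Met, the receptor for hepatocyte growth factor, reached its level at day 4, with 144 and 147 CPM there and 142 and 134 CPM at day 6.

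All 10 G protein-coupled receptors and their regulators were higher at day 4 than at day 2, and 7 of the 10 were higher again at day 6, with a median log2 fold change over untreated of 0.91 at day 2 and 3.94 at day 6. Ccr1, a receptor for inflammatory chemokines, measured 9.60 and 10.4 CPM untreated, 16.7 and 19.5 at day 2, 92.4 and 112 at day 4 and 178 and 187 at day 6. Cnr2, the cannabinoid receptor of leukocytes, measured 6.11 and 3.76 CPM untreated, 11.3 and 11.4 at day 2, 33.8 and 43.7 at day 4 and 81.5 and 84.1 at day 6. P2ry6, which senses UDP, measured 0.849 and 0.752 CPM untreated, 1.85 and 1.98 at day 2, 25.2 and 29.5 at day 4 and 39.3 and 36.4 at day 6. The later groups stood clear of the earlier ones for these receptors, and at the last step Ccr1 rose by 0.84 ± 0.10, adjusted p = 0.000136 by edgeR. P2ry6 passed there as well (0.47 ± 0.11, adjusted p = 0.00994 by edgeR), but not without day 4 replicate 1 (edgeR adjusted p = 0.117) or day 6 replicate 1 (0.1). Gpr65, a proton-sensing receptor, measured 2.55 and 2.92 CPM untreated, 6.58 and 10.3 at day 2, 65.2 and 59.9 at day 4 and 78.1 and 71.9 at day 6. There was no call between day 6 and day 4 (edgeR adjusted p = 0.137).

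The Toll-like receptor pathway held 7 members, all higher at day 4 than at day 2. Tlr1, which pairs with Tlr2 to sense bacterial lipopeptides, measured 0.510 and 0.418 CPM untreated, 0.924 and 1.53 at day 2, 11.7 and 11.5 at day 4 and 21.5 and 17.5 at day 6. It started under 1 CPM. Tlr9, the endosomal receptor for unmethylated DNA, measured 6.03 and 5.43 CPM untreated, 9.47 and 14.3 at day 2, 78.7 and 100.02 at day 4 and 127 and 122 at day 6. Unc93b1, the chaperone that delivers Tlr9 to endosomes, measured 79.3 and 71.1 CPM untreated, 118 and 138 at day 2, 554 and 621 at day 4 and 704 and 676 at day 6. All 3 rose most between day 2 and day 4, and for Unc93b1 that step was 2.19 ± 0.10. Cd180 and Ly86, which form a Toll-like complex that restrains lipopolysaccharide responses, reached 272 and 268 CPM and 320.2 and 297 CPM at day 6, against 44.7 and 35.9 CPM and 44.2 and 38.1 CPM untreated. Neither was called between day 6 and day 4. At that step Tlr1 and Tlr9 were higher (edgeR adjusted p = 0.00945 and 0.0185), and both calls were lost without day 4 replicate 1 (edgeR adjusted p = 0.0704 for Tlr1 and 0.182 for Tlr9) or day 6 replicate 1 (0.122 and 0.12), that of Tlr1 also without day 4 replicate 2 (0.0533) and that of Tlr9 also without day 6 replicate 2 (0.09).

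The 4 members of the MHC class II pathway were all higher at day 4 than at day 2. Cd74, the invariant chain that guides class II molecules, measured 5.60 and 3.76 CPM untreated, 19.97 and 8.62 at day 2, 132 and 129 at day 4 and 242 and 248 at day 6. Its day 2 replicates differed, as did the summed B cell markers, at 914 CPM in day 2 replicate 1 and 445 CPM in replicate 2. B cells also use Cd74, and their part in the day 2 value was not tested. H2-DMa, a chain of the peptide editor H2-DM, measured 2.46 and 2.26 CPM untreated, 3.81 and 5.48 at day 2, 40.5 and 47.7 at day 4 and 56.8 and 47.5 at day 6. H2-Oa, a chain of its inhibitor H2-O, measured 1.02 and 1.42 CPM untreated, 2.89 and 2.24 at day 2, 5.99 and 5.37 at day 4 and 4.28 and 4.87 at day 6. H2-DMb2 has a close neighbour copy and is uncertain.

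Adaptors, kinases and GTPase regulators that act behind these receptors numbered 15. At day 4, 13 of the 15 were higher than at day 2, and 9 were higher and 2 lower at day 6 than at day 4. Sla, an adaptor that lowers antigen and cytokine receptor signalling, measured 45.7 and 43.3 CPM untreated, 107 and 113 at day 2, 594 and 561 at day 4 and 811 and 825 at day 6. Day 6 exceeded day 4 by 0.50 ± 0.07, adjusted p = 0.000395 by edgeR. Apba1, a scaffold of vesicle traffic, measured 8.24 and 9.44 CPM untreated, 23.4 and 29.99 at day 2, 92.3 and 92.5 at day 4 and 76.7 and 69.6 at day 6. It was highest at day 4, and the log2 fold change of day 6 over day 4 was -0.34 ± 0.10, adjusted p = 0.0314 by edgeR, a call lost without any 1 of the 4 libraries compared, with edgeR adjusted p from 0.079 to 0.25. Pik3r5, a regulatory subunit of the PI3 kinase that answers G protein-coupled receptors, measured 0.510 and 0.501 CPM untreated, 1.15 and 0.808 at day 2, 29.0 and 31.0 at day 4 and 69.2 and 64.3 at day 6. It stood near 1 CPM at day 2 and took its largest step after it. Fes, a myeloid tyrosine kinase, measured 100.3 and 103 CPM untreated, 157 and 154 at day 2, 370.4 and 399 at day 4 and 475 and 505 at day 6. Apbb1ip, the Rap1 effector that activates integrins, measured 76.8 and 74.5 CPM untreated, 108 and 119 at day 2, 208 and 225 at day 4 and 299 and 289 at day 6. Between day 6 and day 4 their differences on the log2 scale were 0.35 ± 0.07 and 0.44 ± 0.08 (edgeR adjusted p = 0.00387 and 0.0015), and Fes lost its call without day 4 replicate 1 (edgeR adjusted p = 0.0527) or day 6 replicate 2 (0.0621). Tagap, a GTPase activating protein whose promoter is printed above, measured 7.05 and 5.77 CPM untreated, 11.3 and 14.8 at day 2, 54.4 and 62.4 at day 4 and 79.2 and 84.5 at day 6. Mapk13, the delta form of p38 kinase, measured 14.9 and 11.9 CPM untreated, 24.0 and 20.9 at day 2, 31.4 and 51.9 at day 4 and 161 and 188 at day 6. Its largest step was the last (log2 fold change 2.07 ± 0.18, adjusted p = 2.73e-05 by edgeR).

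Of the 10 members of the cytoskeleton, 7 were higher at day 4 than at day 2 and 9 at day 6 than at day 4. The 9 include Krt17, which met the 5 CPM limit only through day 6, so its call there is no support. Coro1a, which binds actin filaments in leukocytes and was the most abundant member, measured 329 and 272 CPM untreated, 665 and 649.8 at day 2, 1981 and 2123 at day 4 and 2827 and 2962 at day 6. Day 6 exceeded day 4 by a log2 fold change of 0.50 ± 0.10, adjusted p = 0.00385 by edgeR, and without day 4 replicate 1 the adjusted p was 0.0508. Dstn, the actin-depolymerising factor destrin, measured 429 and 389.6 CPM untreated, 825 and 863 at day 2, 812 and 881 at day 4 and 1067 and 1124 at day 6. Its rise up to day 4 was present at day 2. At the last step it passed (edgeR adjusted p = 0.0073), but not without day 4 replicate 1 (0.0876) or day 6 replicate 2 (0.0847). Krt17, an epithelial keratin at low level, measured 0.510 and 0.251 CPM untreated, 2.19 and 1.26 at day 2, 0.636 and 2.15 at day 4 and 4.96 and 5.51 at day 6. Its day 2 and day 4 libraries overlapped, and it met the 5 CPM limit only through day 6, so its change from day 4 to day 6 (1.92 ± 0.46 on the log2 scale) is given with no test. Among the 21 adhesion, matrix and secreted factors, 9 were higher and 7 lower at day 6 than at day 4, against 15.9% and 14.0% of all genes tested.

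**Figure D5:**
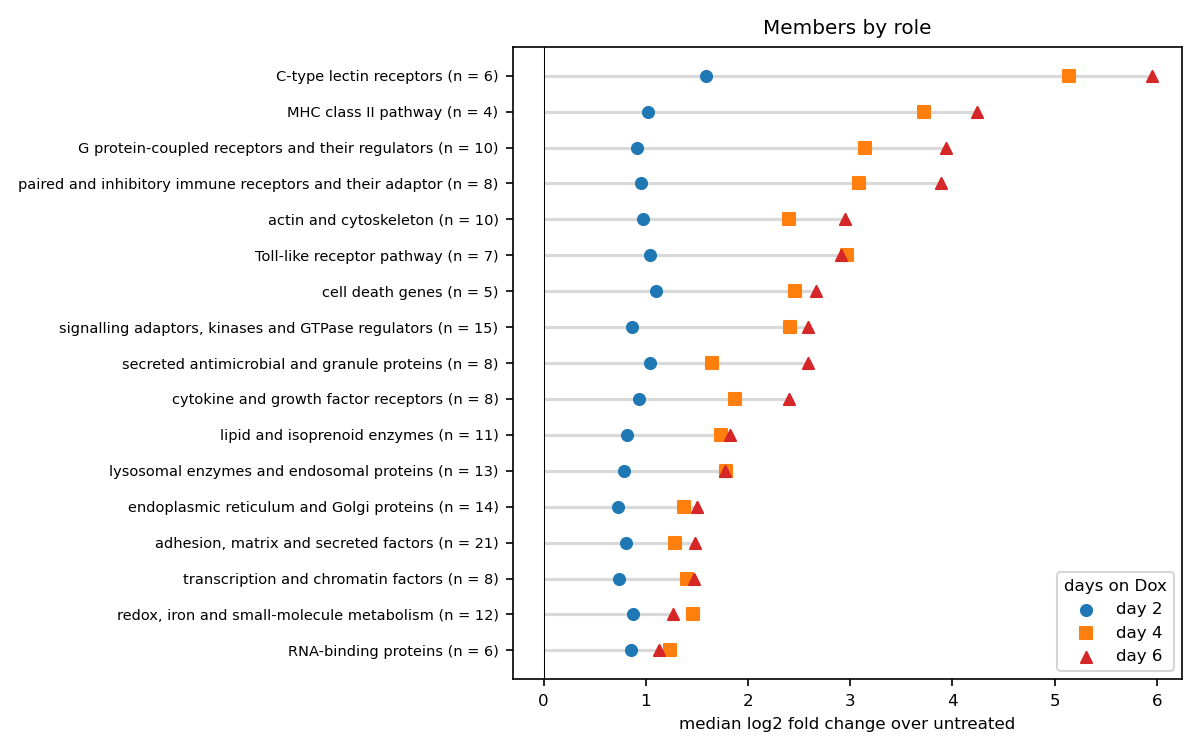
Median log2 fold change over untreated (x axis) of the members of each of the 17 role groups (y axis, with n) at day 2 (circles), day 4 (squares) and day 6 (triangles), from the fit, with Clec4n at its fitted value. At day 2 the groups lie close together, and by day 6 the C-type lectin receptors reach 5.95 and the RNA-binding proteins 1.13.

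Granule and antimicrobial genes took mixed courses. Pglyrp1, a peptidoglycan-binding protein of neutrophil granules, measured 34.5 and 26.7 CPM untreated, 83.0 and 59.9 at day 2, 171 and 224 at day 4 and 779 and 914 at day 6. Its last step was the largest (log2 fold change 2.10 ± 0.16, adjusted p = 1.67e-05 by edgeR). Asprv1, an aspartic protease of skin and neutrophils, had 3 counts over both untreated libraries and 7 over both day 2 libraries, then measured 4.45 and 7.81 CPM at day 4 and 62.7 and 94.4 CPM at day 6. It had the largest change of the members called between day 6 and day 4 (log2 fold change 3.69 ± 0.24, adjusted p = 6.9e-06 by edgeR). Trem3, a myeloid activating receptor, measured 58.9 and 47.7 CPM untreated, 107 and 88.0 at day 2, 99.8 and 113 at day 4 and 225 and 237 at day 6. Its day 2 and day 4 libraries overlapped and day 6 lay above them. Lyz1, a lysozyme with a near-identical copy, measured 35.6 and 29.2 CPM untreated, 52.2 and 50.3 at day 2, 421 and 441 at day 4 and 699 and 723 at day 6. Prss57, a serine protease of primary granules, measured 7.90 and 5.10 CPM untreated, 16.6 and 16.9 at day 2, 21.7 and 23.5 at day 4 and 36.2 and 39.8 at day 6. Day 6 exceeded day 4 by 0.75 ± 0.14, adjusted p = 0.00275 by edgeR. Nkg7, a granule membrane protein that is also a T and NK cell marker, measured 130.1 and 111 CPM untreated, 185 and 215 at day 2, 114 and 122 at day 4 and 105 and 93.2 at day 6. It was highest at day 2, and at day 4 it was lower than at day 2 (log2 fold change -0.76 ± 0.10). Ms4a3, a marker of granulocyte and monocyte progenitors, measured 395 and 379 CPM untreated, 619 and 561 at day 2, 526 and 458 at day 4 and 483 and 506 at day 6. It had its highest mean at day 2, and the log2 fold change of day 4 over day 2 was -0.26 ± 0.09. At day 6 Ms4a3 lay above untreated by 0.35 ± 0.09, and scaling by total counts turned that to -0.09.

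The 13 lysosomal and endosomal members were at least as high at day 4 as at day 2 in their means, with 10 called, and 4 were higher and 0 lower at day 6 than at day 4. Ctsh, the aminopeptidase cathepsin H, measured 266 and 225 CPM untreated, 469.8 and 515 at day 2, 1078 and 996 at day 4 and 880.0 and 881 at day 6. Ctsz, the carboxypeptidase cathepsin Z, measured 94.0 and 87.0 CPM untreated, 140.5 and 171.7 at day 2, 316 and 307 at day 4 and 272 and 264 at day 6. Lgmn, the asparagine endopeptidase legumain, measured 13.1 and 12.9 CPM untreated, 19.4 and 31.9 at day 2, 141 and 161 at day 4 and 158 and 142 at day 6. These proteases had no higher mean at day 6 than at day 4 beyond their spread, and none of the 3 was called at that step (edgeR adjusted p = 0.0841, 0.0947 and 0.985). Among lipid enzymes, Fdps, the farnesyl diphosphate synthase of the mevalonate pathway, measured 15.97 and 16.1 CPM untreated, 39.4 and 34.5 at day 2, 55.4 and 51.3 at day 4 and 53.1 and 55.5 at day 6, so 54.6% of its day 6 rise was present at day 2. Fdps lies 225 bases from the member Rusc1, and the strand of the reads is not given in the sources used here. Idi1, the enzyme just before Fdps in that pathway, measured 5.27 and 5.43 CPM untreated, 9.81 and 9.07 at day 2, 9.63 and 6.34 at day 4 and 4.17 and 3.46 at day 6. It fell back by day 6 (log2 fold change over day 4 -1.07 ± 0.25, adjusted p = 0.00735 by edgeR), a call lost without day 4 replicate 1 (edgeR adjusted p = 0.0934) or day 6 replicate 2 (0.0813). Of the 25 cholesterol synthesis genes measured, these were the 2 members (8%, against 1.73% of all genes measured).

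Transcription and chromatin factors gave 8 members. Of 54 myeloid factors listed and measured, 2 were members (3.7%, against 1.73% of all genes measured), Klf4 and Pparg. Klf4, a zinc finger factor of monocytes, measured 15.5 and 17.3 CPM untreated, 30.5 and 43.5 at day 2, 239.9 and 251 at day 4 and 204 and 193 at day 6. Day 4 exceeded day 2 by 2.72 ± 0.13, and the lower day 6 mean was not called (edgeR adjusted p = 0.0683). Pparg, the nuclear receptor that governs lipid handling in macrophages, measured 5.01 and 5.26 CPM untreated, 7.73 and 12.1 at day 2, 22.2 and 26.2 at day 4 and 15.3 and 13.4 at day 6. It was highest at day 4, and the fall at day 6 (-0.75 ± 0.18, adjusted p = 0.00936 by edgeR) was not called without day 4 replicate 2 (edgeR adjusted p = 0.0736) or day 6 replicate 2 (0.105). Ikzf1, the lymphoid and myeloid factor Ikaros, measured 228 and 199 CPM untreated, 349.6 and 345 at day 2, 506 and 566 at day 4 and 679 and 696 at day 6. Day 6 lay above each earlier group. Med21, a subunit of the Mediator complex, measured 23.8 and 23.4 CPM untreated, 56.9 and 55.0 at day 2, 76.7 and 72.1 at day 4 and 63.2 and 64.2 at day 6. Most of its change was present at day 2. Its small fall at day 6 (-0.22 ± 0.08, adjusted p = 0.0477 by edgeR) was lost without any 1 of the day 2, day 4 and day 6 libraries, with edgeR adjusted p from 0.0669 to 0.258.

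Among metabolic members, Gpx1, the main cytosolic glutathione peroxidase, measured 1063 and 877 CPM untreated, 1606 and 1573 at day 2, 2585 and 2416 at day 4 and 2130.2 and 2190.1 at day 6. Slc2a5, a fructose transporter, measured 1.19 and 1.09 CPM untreated, 3.93 and 3.59 at day 2, 7.17 and 6.44 at day 4 and 2.93 and 2.81 at day 6. Its day 6 libraries lay below those of day 2 and day 4, and the log2 fold change of day 6 over day 4 was -1.24 ± 0.24, given with no test because it met the 5 CPM limit only through day 4. Papss2, which makes the sulfate donor of the cell, measured 85.6 and 92.1 CPM untreated, 155 and 171 at day 2, 250.2 and 214 at day 4 and 143 and 131 at day 6. It also fell at day 6 (-0.76 ± 0.09, adjusted p = 0.000202 by edgeR). In the endoplasmic reticulum and Golgi group, Tmed5, a cargo receptor of early secretory vesicles, measured 46.2 and 42.8 CPM untreated, 112 and 109.5 at day 2, 185 and 185 at day 4 and 223 and 222 at day 6. The groups never overlapped. Its last step (edgeR adjusted p = 0.0134) was not called without any 1 of the 4 libraries compared, with edgeR adjusted p from 0.0527 to 0.0884. Lin28a, which blocks maturation of let-7 microRNAs, measured 3.31 and 3.26 CPM untreated, 5.195 and 5.30 at day 2, 8.63 and 6.93 at day 4 and 26.5 and 33.0 at day 6. Its last step was the largest (log2 fold change 1.93 ± 0.16, adjusted p = 2.28e-05 by edgeR). Pcna, the replication clamp, was the only member of 62 S phase genes measured (1.61%, near the 1.73% of all genes measured). It measured 119.6 and 109 CPM untreated, 178 and 189 at day 2, 205 and 188 at day 4 and 177 and 174 at day 6. Its groups after untreated lay close together and neither later step was called (edgeR adjusted p = 0.132 for day 6 over day 4). F13a1, the A chain of coagulation factor XIII and a monocyte gene, measured 58.4 and 70.4 CPM untreated, 99.3 and 106 at day 2, 804 and 788 at day 4 and 820.1 and 746 at day 6. Ifit1bl1, a protein of the IFIT family, measured 0.255 and 0.167 CPM untreated, 0.924 and 0.808 at day 2, 4.90 and 7.32 at day 4 and 23.9 and 25.6 at day 6. Ly6a, the stem cell antigen Sca-1, measured 19.96 and 18.8 CPM untreated, 28.1 and 28.2 at day 2, 31.7 and 34.8 at day 4 and 33.6 and 41.5 at day 6. F13a1 had nearly all of its rise between day 2 and day 4 and Ifit1bl1 rose at both later steps, while neither later step of Ly6a was called. Cell death genes gave 5 members, among them Mlkl, the executioner of necroptosis, with 12.7 and 12.4 CPM untreated, 27.2 and 36.7 at day 2, 66.1 and 74.2 at day 4 and 77.8 and 73.4 at day 6. Pmaip1, the BH3-only protein Noxa, measured 5.18 and 5.35 CPM untreated, 11.1 and 14.10 at day 2, 34.8 and 32.3 at day 4 and 34.5 and 32.4 at day 6. Both reached a plateau at day 4.

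Some members did not stay raised. They were chosen for high day 2 libraries, which favours a lower value afterwards. By day 6, 8 members were called lower than untreated: Thy1, Iqcg, Spp1, Nid2, Tfpi2, Spns3, N6amt1 and Nkg7. The rule read the untreated libraries, so differences from untreated are given here as a description with no p. Spp1, the secreted matrix protein osteopontin, measured 57.7 and 58.0 CPM untreated, 93.5 and 117 at day 2, 54.8 and 61.1 at day 4 and 38.8 and 36.8 at day 6. Its day 2 libraries exceeded all others, and it was lower at day 4 than at day 2 (log2 fold change -0.86 ± 0.11). It fell between day 4 and day 6 (-0.62 ± 0.11, adjusted p = 0.00221 by edgeR). Nid2, a basement membrane protein, measured 35.4 and 35.6 CPM untreated, 56.9 and 58.8 at day 2, 37.6 and 41.1 at day 4 and 26.3 and 26.9 at day 6. Its day 4 libraries lay below those of day 2, and it was called lower at day 6 than at day 4. Thy1, a surface glycoprotein of lymphocytes and stem cells, measured 12.7 and 13.5 CPM untreated, 23.7 and 31.5 at day 2, 17.9 and 21.1 at day 4 and 8.68 and 8.76 at day 6. Day 6 lay below untreated (log2 fold change -0.59 ± 0.17), a call lost without untreated replicate 2, day 6 replicate 1 or day 6 replicate 2. Tfpi2, a serine protease inhibitor, measured 6.28 and 5.10 CPM untreated, 9.35 and 9.79 at day 2, 6.09 and 6.34 at day 4 and 2.82 and 3.14 at day 6. N6amt1, a methyltransferase for a translation termination factor, measured 10.9 and 12.1 CPM untreated, 17.2 and 17.5 at day 2, 13.5 and 13.5 at day 4 and 8.45 and 7.35 at day 6. Both were at their lowest at day 6. Spns3, a sphingolipid transporter family member, was the only member called lower at day 4 than untreated (-0.29 ± 0.09). That call was lost without untreated replicate 1 or day 4 replicate 2. Day 6 was lower still, at 29.98 and 29.6 CPM. The calls below untreated at day 6 held in each fit with 1 library left out for Nid2, Spns3, Spp1 and Tfpi2. That of N6amt1 was lost without day 6 replicate 2, and that of Nkg7 without untreated replicate 1 or day 6 replicate 2. The call of Iqcg was lost without untreated replicate 2 or day 6 replicate 1. Other members peaked at day 4. Matn2, a matrix protein, measured 6.45 and 6.52 CPM untreated, 9.24 and 13.2 at day 2, 21.8 and 21.5 at day 4 and 10.6 and 12.3 at day 6. Dmrtb1, a DM domain factor known from testis, measured 10.9 and 15.8 CPM untreated, 25.3 and 28.1 at day 2, 44.6 and 45.3 at day 4 and 24.3 and 25.4 at day 6. Both were called lower at day 6 than at day 4 (edgeR adjusted p = 0.00199 and 0.00115).

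Lists of known genes held members as follows. The lists were chosen with earlier results of these data known, so the shares are a description and no list was tested. Members made up 6 of the 25 monocyte and macrophage surface genes measured (24%), 8 of 40 pattern recognition receptors and adaptors (20%), 11 of 51 Fc receptors, integrins and adaptors (21.6%) and 9 of 51 known PU.1 targets (17.6%), against 1.73% of all genes measured. The PU.1 targets were Coro1a, Csf1r, Dok3, Fes, Icam1, Klf4, Pirb, Tlr9 and Tyrobp. The 11 members on the list of Fc receptors, integrins and adaptors include Apba1, a scaffold of vesicle traffic. Members were also 3 of 14 primary granule genes, 1 of 25 secondary and tertiary granule genes, 3 of 24 mature neutrophil genes and 3 of 42 lysosomal genes. No member came from the 44 G2 and M phase, 30 ribosome biogenesis, 42 nucleotide metabolism, 29 glycolysis or 39 interferon response genes measured. At the share of 1.73% over all genes, lists of these sizes would hold few members or none, so the absence is no result about them. The member Ifit1bl1, of the IFIT family, was not on the interferon list. As whole lists, 25 of the 25 monocyte and macrophage genes tested were higher at day 4 than at day 2 (against 21.7% of all genes tested), as were 23 of 25 secondary and tertiary granule genes, 34 of 39 interferon response genes, 39 of 50 PU.1 targets and 18 of 24 mature neutrophil genes. At day 6, 13 of the 25 monocyte and macrophage genes were higher than at day 4 (against 15.9%), as were 23 of 25 secondary and tertiary granule genes, 30 of 39 interferon response genes, 33 of 50 PU.1 targets and 23 of 24 mature neutrophil genes. Some lists fell instead. Of 14 primary granule genes, 2 were higher and 8 lower at day 4 than at day 2 (against 15.9% lower of all genes tested). Between day 4 and day 6, 1 of the 14 was higher and 7 were lower (against 14.0% lower). Of 30 ribosome biogenesis genes, 0 were higher and 22 lower at day 4 than at day 2.

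Markers of other cells moved as follows. B cell markers (24 genes) added up to 559 and 356 CPM untreated, 914 and 445 at day 2, 654 and 756 at day 4 and 619 and 634 at day 6. The 14 dendritic cell markers, which include the member Cd74, summed to 85.9 and 85.1 CPM untreated, 132 and 103 at day 2, 270.2 and 288 at day 4 and 434 and 436 at day 6. The 8 stroma and endothelium markers, which include the member Vcam1, summed to 218 and 196 CPM untreated, 251 and 286 at day 2, 442 and 441 at day 4 and 449 and 414 at day 6. Skeletal muscle genes (15 measured) summed to 51.0 and 51.6 CPM at day 6, against 196 and 232 CPM untreated. The 14 mast cell, basophil and eosinophil markers summed to 201 and 221 CPM at day 6, against 443 and 413 CPM untreated. Sums for T and NK cells lay between 120.1 and 240.02 CPM, for erythroid cells between 74.6 and 167.9 CPM and for megakaryocytes between 36.7 and 82.0 CPM. A sum follows its most abundant genes, and single markers moved differently. At day 6 relative to untreated, 5 of 24 B cell markers were higher and 2 lower (median log2 fold change 0.08), 9 of 12 dendritic cell markers tested were higher and 0 lower (2.74), 3 of 8 stromal markers were higher and 3 lower (-0.38), and 6 of 14 mast cell, basophil and eosinophil markers were higher and 3 lower (0.46). Of the 9 erythroid markers, 6 were higher at day 6 than at day 4 and 0 lower (median 3.215). Their part in the members' values was not tested. Vcam1, an adhesion molecule of stroma and macrophages, measured 10.3 and 11.7 CPM untreated, 27.7 and 18.0 at day 2, 17.3 and 20.7 at day 4 and 29.9 and 31.4 at day 6. The day 6 rise over day 4 (0.69 ± 0.18, adjusted p = 0.0134 by edgeR) was not called without day 4 replicate 1 (edgeR adjusted p = 0.118), day 6 replicate 1 (0.0558) or day 6 replicate 2 (0.089).

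Some members lay close together in the genome. Each member was compared with the next member along its chromosome, and 16 such pairs were less than 200000 bases apart. They involved 29 members (13.1%), and 10.1% of the other placed genes had a member within that distance. On chromosome 6 of GRCm38.p6 stood Clec4a4 (122990367 to 123024421), Clec4a2 (123122690 to 123143999) and Clec4n (123229843 to 123247024), and on chromosome 17 H2-Oa (34092379 to 34095234), H2-DMa (34119693 to 34139101) and H2-DMb2 (34143229 to 34151553). Pilra and Pilrb1 were neighbours on chromosome 5, and Siglecf and Nkg7 on chromosome 7. The latter pair took unlike courses: Siglecf had a higher mean at each later time, and Nkg7 had a lower mean at day 4 than at day 2. Stk26 and Frmd7 overlap by 460 bases on chromosome X, so their reads cannot be told apart where strand is not given.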

How the data were processed

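RNA-seq counts per gene in 8 libraries, 2 in each of 4 groups, were used as deposited. Per the file headers, each file gives an Entrez gene ID, a gene length, which was not used, and a count. Per the submitters' processing notes, the build was mm10 and the tools were featureCounts, limma 3.22.0, edgeR 3.8.2 and CASAVA 1.8.2. Neither aligner nor strand setting is given in the sources used here. The lowest third-highest CPM of a gene was 0.501, so low genes had been removed before deposit. Symbols came from RefSeq (GRCm38.p6), and 275 IDs had none (2.24% of counts).

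TMM factors were computed on all 12830 genes. After filterByExpr removed 500 genes (0.0267% of counts), edgeR 4.0.16 (R 4.3.3) fitted a quasi-likelihood model with a mean for each group over all 8 libraries. P-values were adjusted by the Benjamini-Hochberg method over 12330 genes, at a threshold of 0.05. Errors of log2 fold changes are standard errors. The coefficient of variation between libraries that edgeR estimated was 8.34%, with 4 residual degrees of freedom. That spread may be technical. Alternatives were other scalings, filters, rule limits, a 1.2-fold minimum change, DESeq2 1.42.0, a replicate block and leaving out each library. The script was tested on simulated data. Members, role groups and gene lists were chosen with earlier results of these data known. Named genes were the members with the 12 largest ratios, the 8 largest and 8 smallest called changes between day 6 and day 4, the 8 highest CPM, list genes and Spi1. Some named genes are not reported here.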

Additional observations from a re-analysis of the deposited data

How the results depend on the processing

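The number of members, 222, was 222 with RLE size factors and 219 with TMM on filtered genes, but 71 when scaled by total counts, 356 at a ratio limit of 1.3 and 87 at 1.6. With 1 library left out of the rule it lay between 341 and 486. Between day 6 and day 4, total counts gave 61 higher and 40 lower members. A 1.2-fold minimum change left 11 lower members there, 7 lower at day 4 than at day 2, and 0 lower at day 4 than untreated. DESeq2 gave 8 lower at day 4 than at day 2 and 0 lower at day 4 than untreated. With each library left out in turn, the members ranged from 64 to 100 higher and 9 to 29 lower at day 6 than at day 4, from 8 to 15 lower at day 4 than at day 2, from 0 to 1 lower at day 4 than untreated and from 5 to 8 lower at day 6 than untreated. The cause was not tested. Replicate numbers did not pair the samples (correlations of deviations from -0.138 to 0.2), and with a replicate block 96 members were higher and 24 lower at day 6 than at day 4, 155 higher and 14 lower at day 4 than at day 2, and 208 higher with 1 and 8 lower at day 4 and day 6 than untreated. Chosen after seeing the data, a minimum of 20 counts over the day 2 libraries left 87 higher and 25 lower members at day 6 than at day 4. Of 928 values of named members under the alternatives, 831 kept their call or lack of one, 60 lost a call and 37 gained one. A change of sign with a call in either fit occurred in 0. Values with no call in either fit could change sign and are among the 831. Csf1r, for instance, went from 0.09 to -0.09 between day 4 and day 6 with total counts. For members under 20 counts at day 2 the early level is known only roughly.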
